A study of Bos taurus with 21 samples.

Results

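In the endometrium of cyclic heifers 30 transcripts were higher on day 16 than on day 13 of the oestrous cycle, while their mean level differed little between the same days in pregnant heifers. They were chosen by these very values among 28054 Ensembl bovine transcript identifiers. For the choice, counts were expressed as CPM (read counts per 1000000 counts of the library) and as log2(CPM + 1). A transcript entered with a mean of at least 5 CPM over 20 heifers, a cyclic day 16 mean at least 0.7 log2 units above the cyclic day 13 mean, every cyclic day 16 heifer above every cyclic day 13 heifer, and a pregnant day 16 mean between -0.3 and 0.3 log2 units from the pregnant day 13 mean. The identifiers ENSBTAT00000002431 and ENSBTAT00000026346, were left out by the rule, and 0 of these 2 met its other conditions.

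The endometrium is the lining of the uterus, and its transcript levels follow the ovarian hormones. Progesterone from the corpus luteum acts on it through most of the cycle. Without a conceptus the endometrium later releases prostaglandin pulses that end the life of the corpus luteum, and in cattle an elongating conceptus prevents this by secreting interferon tau. Days 13 and 16 therefore fall before and around the time at which the cyclic and the pregnant uterus part ways.

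RNA was sequenced from 5 heifers in each of 4 groups of cross-bred, mainly Charolais and Limousin beef heifers: cyclic and not inseminated at day 13, the same at day 16, pregnant at day 13 and pregnant at day 16. All 4 groups had been synchronised with a progesterone device and a prostaglandin analogue, and their ages are not in the labels. Pregnant heifers were inseminated animals from which a conceptus of the proper stage was flushed, and the tissue was mostly intercaruncular endometrium from the horn beside the corpus luteum. The identifiers are not paired with gene names in the sources used here, so the tissue could not be checked against marker genes and members are described by identifier, with no known role to give. In this bulk tissue, more cells of a type and more RNA per cell cannot be told apart.

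The 20 libraries used held 1256870 to 3764342 counts, so that 3 counts corresponded to 0.797 to 2.39 CPM. A second library labelled heifer 12 (pregnant, day 16) was left out by the rule. It was closer to the library labelled heifer 19 than any other of the 210 pairs of libraries were to each other, by a chi-square test of their counts over transcripts. The statistic divided by its degrees of freedom was 2.001 for this pair, 3.30 for the next pair and 6.85 for the 2 libraries labelled heifer 12. Which label is right was not settled. Without heifer 12 the median pregnant change of the 30 members, -0.04 with all heifers, was 0.07 (17 higher and 13 lower at day 16), and without heifer 19 it was -0.10 (8 higher and 22 lower).

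Rising in cyclic heifers by these thresholds was uncommon. Of 13646 transcripts with at least 5 CPM, 224 (1.64%) had all cyclic day 16 heifers above all cyclic day 13 heifers, and 70 (0.513%) also rose by at least 0.7. Among these 70, the pregnant change was over 0.3 in 36, within 0.3 in the 30 described here and under -0.3 in 4. A pregnant change within 0.3 was itself common, at 70.4% of the 13646. The median change over the 13646 transcripts was 0.01 in cyclic and -0.0003 in pregnant heifers, on a scale where each library is divided by its own total. The median pregnant change of the 70 was 0.31, so all of the 30 lay in the lower part of that range.

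**Figure D1:**
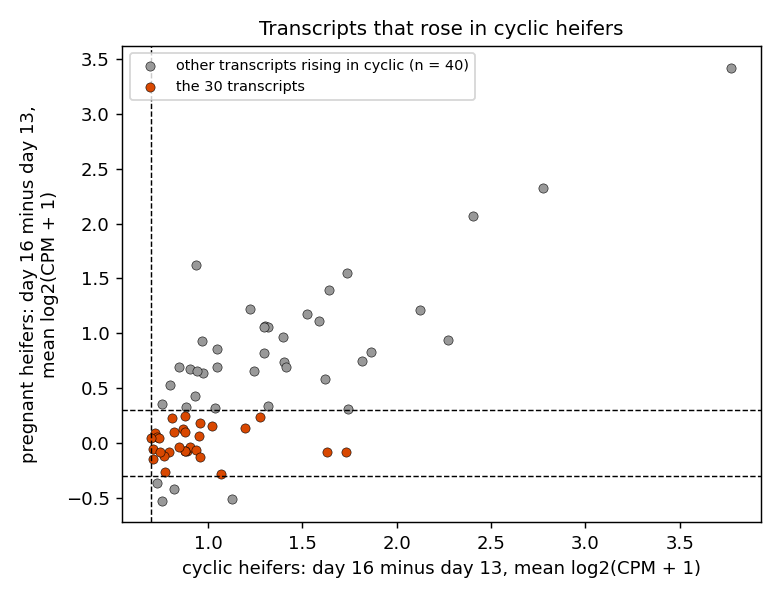
Change between days in cyclic heifers (horizontal axis) against the change in pregnant heifers (vertical axis), both as differences of mean log2(CPM + 1), for the 70 transcripts that rose without overlap in cyclic heifers. The 30 transcripts (orange) lie between the dashed lines at -0.3 and 0.3, and the others (grey) lie above them (36) or below them (4).

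The borders of the rule were close to several transcripts. ENSBTAT00000053600 entered with a cyclic rise of 0.70, and ENSBTAT00000008660 with 0.71, while ENSBTAT00000021260 stayed out at 0.69 and ENSBTAT00000032527 at 0.67. In pregnant heifers ENSBTAT00000018580 (0.24) and ENSBTAT00000023474 (0.23) were the highest that entered, and ENSBTAT00000057500 (0.31) and ENSBTAT00000027318 (0.32) were just above. ENSBTAT00000034107 (-0.28) and ENSBTAT00000025532 (-0.27) were the lowest that entered, and ENSBTAT00000016262 (-0.37) and ENSBTAT00000052388 (-0.42) were just below. The least abundant members were ENSBTAT00000012857 at a mean of 7.12 CPM and ENSBTAT00000024845 at 7.21 CPM, with ENSBTAT00000056162 (4.47 CPM) and ENSBTAT00000052057 (3.16 CPM) outside. For ENSBTAT00000023470 and ENSBTAT00000023474 the gap between the cyclic groups was 0.00075 log2 units. ENSBTAT00000009343 and ENSBTAT00000006279 were just outside, since their cyclic groups overlapped, with gaps of -0.01 and -0.02.

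The members covered a wide range of abundance. Their mean over 20 heifers ran from 7.12 to 316.3 CPM with a median of 27.1 CPM, against a median of 34.0 CPM over the 13646 transcripts. At most 20 CPM were found in 13 of the 30, while 12 had over 20 to 100 CPM and 5 had over 100 CPM. In cyclic heifers the ratio of day 16 to day 13 mean CPM ran from 1.62 to 3.61 with a median of 1.90. On the log2(CPM + 1) scale the rise reached 1 in 6 members and stayed under 1 in 24. In pregnant heifers the ratio of day 16 to day 13 mean CPM ran from 0.813 to 1.23. As a share of each library's counts the 30 summed to 0.143% ± 0.0136 in cyclic day 13, 0.275% ± 0.0413 in cyclic day 16, 0.190% ± 0.0355 in pregnant day 13 and 0.195% ± 0.0441 in pregnant day 16 heifers (SD, n = 5 each). These values are set by the rule and are a description.

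ENSBTAT00000022340 had the largest cyclic rise on the log2(CPM + 1) scale, 1.73. Its cyclic day 13 heifers had 1.07, 1.87, 4.47, 5.29 and 5.52 CPM, and its cyclic day 16 heifers had 10.2, 12.3, 12.7, 14.9 and 15.7 CPM. At pregnant day 13 the heifers had 5.41, 6.56, 6.88, 7.44 and 13.19 CPM, and at pregnant day 16 they had 3.98, 5.32, 7.80, 10.01 and 10.13 CPM. Of the 10 pregnant heifers, 6 lay between the 2 cyclic ranges, 3 (heifers 1, 12 and 20) lay in the cyclic day 13 range and 1 (heifer 14) in the cyclic day 16 range. The fitted cyclic change was 1.82 on the log2 scale (SE 0.34, edgeR adjusted p = 0.00401), and this transcript passed in 26 of 26 alternative analyses, with adjusted p from 4.15e-05 to 0.0266. The rule chose the members by the cyclic change in these same heifers. Cyclic p-values of single members, here and below, are therefore a description and nothing is read from them.

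ENSBTAT00000028551, the most abundant member, rose by 1.63 in cyclic heifers. Its values were 106, 115, 182, 201 and 210 CPM at cyclic day 13, and 245, 519, 525, 621 and 665 CPM at cyclic day 16. At pregnant day 13 they were 205, 218, 267, 318 and 354 CPM, and at pregnant day 16 they were 104, 137, 313, 321 and 699 CPM. The flat pregnant mean therefore stood for day 16 heifers that were spread from below the lowest cyclic day 13 heifer (heifer 12) to above the highest cyclic day 16 heifer (heifer 6). The fitted cyclic change was 1.66 (SE 0.41, edgeR adjusted p = 0.0472), which passed in 8 of 26 alternatives and reached an adjusted p of 0.159 with the code in the file names as a covariate.

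ENSBTAT00000023474 and ENSBTAT00000023470 had nearly the same counts in every heifer, 723 and 713 over 20 heifers. Chi-square divided by its degrees of freedom was 0.119 for this pair, below the value of about 1 that counting noise gives, so they may share reads. They are counted as 2 members throughout but are not independent. ENSBTAT00000023474 had 4.10 to 11.8 CPM at cyclic day 13, with a median of 7.86, and 11.8 to 26.9 CPM at cyclic day 16, with a median of 19.9. It had at pregnant day 13 7.75, 8.32, 13.76, 15.5 and 15.7 CPM, and at pregnant day 16 it had 8.90, 9.55, 15.6, 16.08 and 23.9 CPM. In both pregnant groups 3 of 5 heifers were within the cyclic day 16 range and 2 of 5 within the cyclic day 13 range. The cyclic groups touched at 11.8 CPM, in heifer 5 of day 13 and heifer 7 of day 16.

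ENSBTAT00000034107 rose from 39.2 ± 5.33 to 86.0 ± 26.2 CPM (SD, n = 5 and 5) in cyclic heifers. Its pregnant day 13 heifers had 37.0, 38.3, 45.3, 55.1 and 61.6 CPM, and its pregnant day 16 heifers had 14.8, 31.0, 44.8, 46.9 and 80.4 CPM. Heifer 4 was the lowest of all 20 and heifer 19 the only pregnant day 16 heifer inside the cyclic day 16 range, while 2 pregnant day 13 heifers also reached it. The fitted cyclic change of 1.14 (SE 0.29) did not pass, with an edgeR adjusted p of 0.0501. ENSBTAT00000007080 had 2.81, 4.91, 5.71, 8.94 and 9.07 CPM at cyclic day 13, and its cyclic day 16 heifers ran from 9.20 to 17.4 CPM. In pregnant heifers it had 5.41 to 13.55 CPM at day 13 and 4.26 to 17.5 CPM at day 16, so that each pregnant group had heifers in both cyclic ranges. Its fitted cyclic change was 1.05 (SE 0.35, edgeR adjusted p = 0.140).

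**Figure D2:**
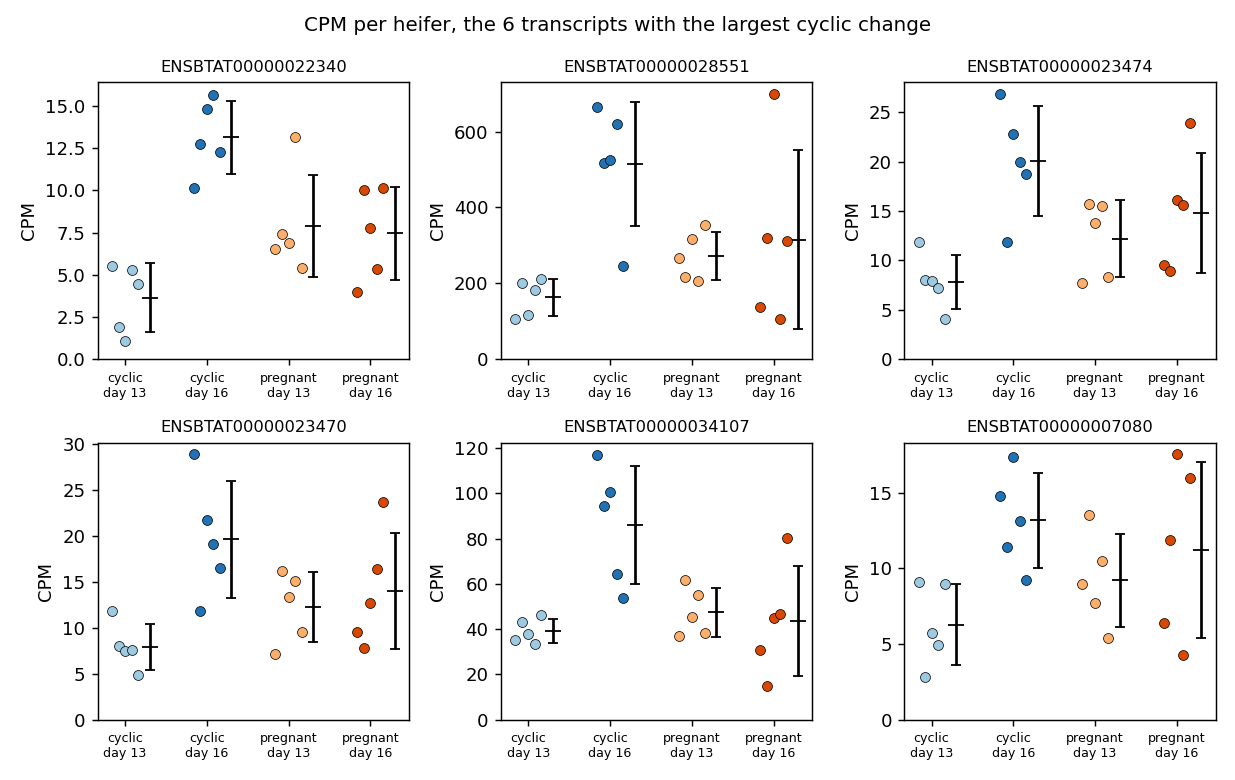
CPM of each heifer (vertical axes, from 0) in the 4 groups for the 6 transcripts with the largest cyclic change, with the group mean and SD (n = 5) as a bar beside the points. Cyclic day 16 heifers lie above cyclic day 13 heifers in every panel, as the rule requires, and pregnant heifers of both days overlap with 1 or both of the cyclic groups.

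The next 3 members in abundance followed. ENSBTAT00000015883 had 237 ± 35.3 CPM at cyclic day 13 and 395 ± 90.2 CPM at cyclic day 16, against 301 ± 90.5 and 312 ± 53.1 CPM in pregnant heifers (SD, n = 5 each). ENSBTAT00000024279 had 231 ± 49.4 and 380 ± 91.4 CPM in cyclic heifers and 320 ± 150 and 291 ± 69.2 CPM in pregnant heifers. ENSBTAT00000053600 had 203 ± 38.0 and 331 ± 68.9 CPM in cyclic heifers and 266 ± 100 and 266 ± 55.4 CPM in pregnant heifers. In these 3 the pregnant means of both days lay between the cyclic means. ENSBTAT00000053600 also tracked a transcript just outside the rule, ENSBTAT00000021260, with a chi-square of 0.042 for each degree of freedom, and the pair may share reads.

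At the median over the members the pregnant level lay between the cyclic levels and nearer to day 13. In some members it lay nearer to day 16. Its place was expressed as a position, with 0 at the cyclic day 13 mean and 1 at the cyclic day 16 mean of log2(CPM + 1). The position of the 10 pregnant heifers had a median of 0.41 over the 30 members and ranged from -0.066 to 0.61. It was under 1/3 in 12 members, between 1/3 and 2/3 in 18 and above that in 0. At day 13 the median position was 0.44 and at day 16 it was 0.40. In 28 members both pregnant means lay between the 2 cyclic means. Since the rule asked for low cyclic day 13 and high cyclic day 16 values in these same heifers, a position between them is favoured by the choice, and no test is given for it.

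**Figure D3:**
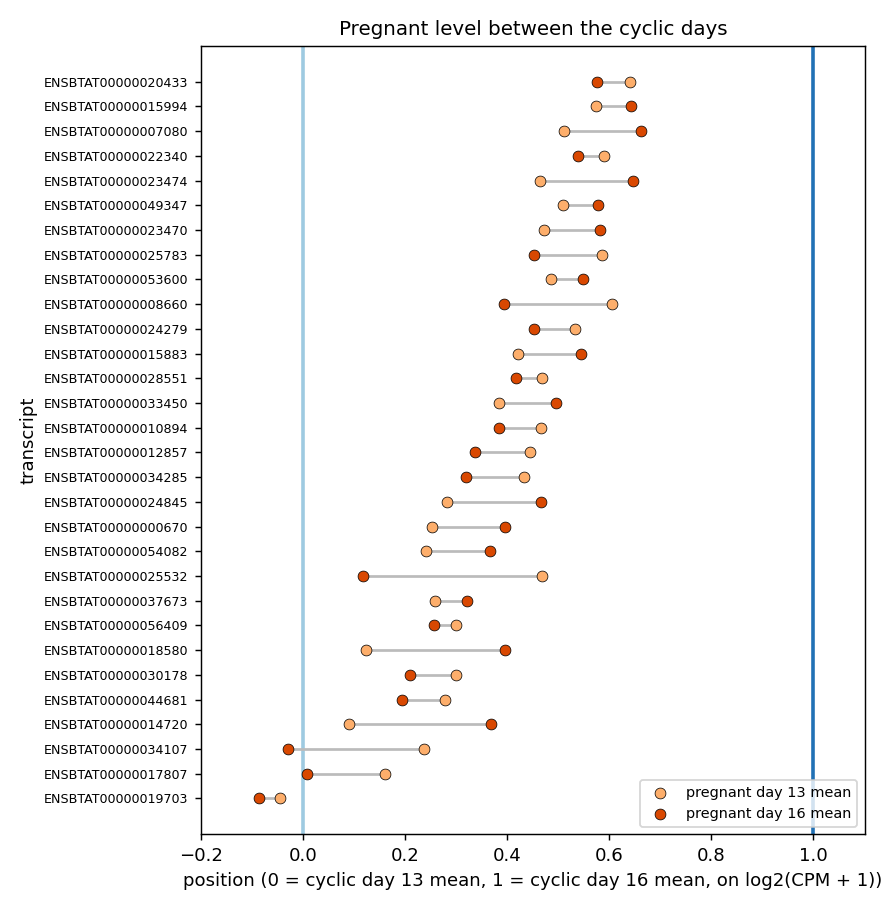
Position of the pregnant day 13 (light) and day 16 (dark) means of each of the 30 transcripts on the log2(CPM + 1) scale, where 0 is the cyclic day 13 mean and 1 the cyclic day 16 mean. Every point lies at or below 0.66, and ENSBTAT00000019703, ENSBTAT00000017807 and ENSBTAT00000034107 have the lowest positions over both pregnant days together.

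The lowest positions belonged to ENSBTAT00000019703 (-0.066), ENSBTAT00000017807 (0.083) and ENSBTAT00000034107 (0.10). ENSBTAT00000019703 had 49.2, 63.1, 64.6, 68.9 and 78.5 CPM at cyclic day 13, and its cyclic day 16 heifers had 92.4, 95.4, 109, 155 and 172 CPM. At pregnant day 13 it had 48.7, 52.2, 57.8, 69.8 and 91.6 CPM, and at pregnant day 16 it had 39.8, 41.2, 77.3, 77.9 and 83.3 CPM. Here 0 of the 10 pregnant heifers reached the cyclic day 16 range. ENSBTAT00000017807 had 22.9 to 35.8 CPM at cyclic day 13 and 36.8 to 61.5 CPM at cyclic day 16. Its pregnant day 13 heifers ran from 25.4 to 39.1 CPM, and its pregnant day 16 heifers had 14.1, 27.8, 29.7, 34.1 and 51.6 CPM, where heifer 19 was the highest. ENSBTAT00000017807 and ENSBTAT00000034107 varied together, with a Pearson correlation of 0.939 over 20 heifers after group means were removed, given as a description.

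The highest positions belonged to ENSBTAT00000020433 (0.61), ENSBTAT00000015994 (0.61) and ENSBTAT00000007080 (0.59). ENSBTAT00000020433 had 10.8 to 19.3 CPM at cyclic day 13 and 23.9 to 35.5 CPM at cyclic day 16. It had at pregnant day 13 14.3, 16.18, 25.2, 25.99 and 27.5 CPM, and at pregnant day 16 it had 10.01, 19.2, 21.9, 27.3 and 28.6 CPM, so that 5 of the 10 were in the cyclic day 16 range. ENSBTAT00000015994 had 22.7 to 32.5 CPM at cyclic day 13 and 36.6 to 55.1 CPM at cyclic day 16. At pregnant day 13 it had 22.1, 32.9, 42.0, 43.7 and 48.1 CPM, and at pregnant day 16 it had 23.1, 23.8, 39.3, 52.2 and 67.7 CPM. At day 16 heifers 1 and 12 were within the cyclic day 13 range and the other 3 within or above the cyclic day 16 range.

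Pregnant heifers were spread widely on both days. Pregnant day 16 heifer 19 was at or above the lowest cyclic day 16 heifer in 21 of the 30 members, and pregnant day 13 heifer 14 was so in 20. Heifer 9 of day 13 reached that range in 15 members, heifer 6 of day 16 in 12, heifer 4 of day 16 in 9, heifer 11 of day 13 in 7 and heifer 20 of day 13 in 5. Heifers 1 and 12 of day 16 reached it in 3 members each and heifer 2 of day 13 in 2. In heifer 1, 27 of the 30 were at or below the highest cyclic day 13 heifer, against 2 of 30 in heifer 19. Both ends were thus present on both days, and the library left out, labelled heifer 12, was in the cyclic day 16 range in 13 members and at or below the highest cyclic day 13 heifer in 11. Heifer 1 had the smallest library, 1256870 counts, and heifer 19 had 3257988. Heifer 2, in the cyclic day 16 range in only 2 members, had 1677742 counts, and heifer 9, in that range in 15, had the largest library, 3764342. The library 1 of heifer 12, also low on the members, held 2817200 counts, and heifer 14, also high, had 2578050. A relation to library size was not tested.

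**Figure D4:**
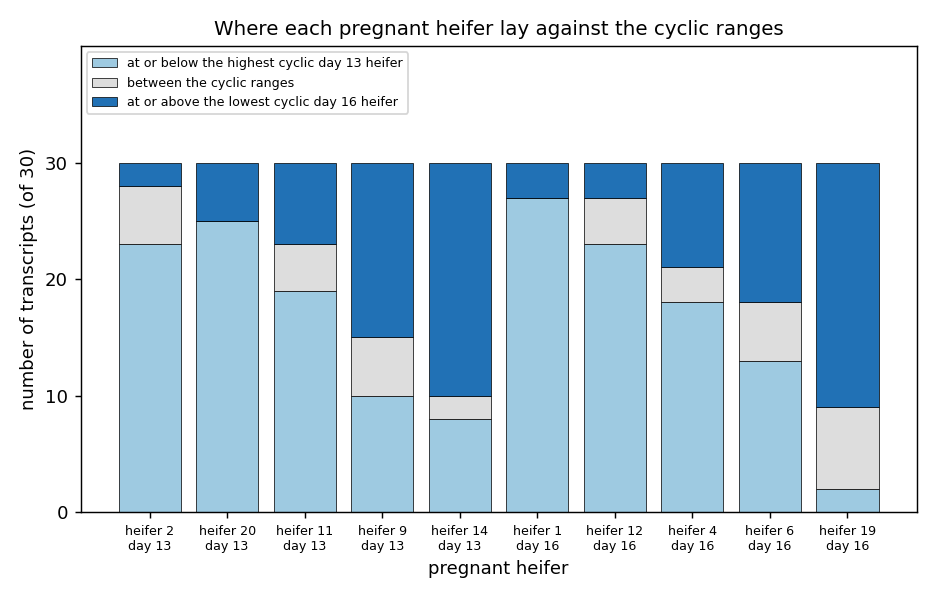
Number of the 30 transcripts (vertical axis) in which each pregnant heifer was at or below the highest cyclic day 13 heifer, between the cyclic ranges, or at or above the lowest cyclic day 16 heifer. The part in the cyclic day 16 range runs from 2 (heifer 2) to 20 (heifer 14) at day 13 and from 3 (heifers 1 and 12) to 21 (heifer 19) at day 16.

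Averaged over the members, the level was 4.54 ± 0.16 log2(CPM + 1) in cyclic day 13, 5.46 ± 0.17 in cyclic day 16, 4.90 ± 0.24 in pregnant day 13 and 4.90 ± 0.30 in pregnant day 16 heifers (SD, n = 5 each). Pregnant day 13 heifers ran from 4.68 to 5.16 and pregnant day 16 heifers from 4.57 to 5.34. The SD between heifers was also large member by member. At pregnant day 16 the median SD of log2(CPM + 1) over the 30 members was 0.46, against 0.27 over the 13646 transcripts, and 24 members were above that second median. At pregnant day 13 the medians were 0.41 and 0.31, with 22 members above. In cyclic heifers, where the rule limits the spread, the medians were 0.35 and 0.27 at day 13, with 21 members above. At cyclic day 16 they were 0.31 and 0.25, with 20 members above. The most variable member at pregnant day 16 was ENSBTAT00000028551, with an SD of 1.09, and the least variable was ENSBTAT00000056409, with an SD of 0.19.

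The members tended to vary together between heifers of a group. After group means were removed, the median Pearson correlation over 435 pairs of members was 0.31 across 20 heifers, and 88.7% of the pairs were above 0. Over all pairs of the 13646 transcripts the median was 0.00 and 50.3% were above 0. All members of a heifer come from the same library, and a few pairs may share reads, so the correlations are a description. The closest pairs were ENSBTAT00000044681 with ENSBTAT00000056409 (0.984) and ENSBTAT00000023470 with ENSBTAT00000023474 (0.970). ENSBTAT00000044681 and ENSBTAT00000056409 had 825 and 804 counts and a chi-square of 0.059 for each degree of freedom, again below counting noise. A further pair of members, ENSBTAT00000012857 and ENSBTAT00000030178, had 372 and 647 counts and a value of 0.490, just under the limit of 0.5 used for such pairs. Members were compared with many transcripts, so a value this near the limit is not read as shared reads. Because of the closer pairs, counts of members include identifiers that may not be independent.

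The high and low pregnant heifers were compared on 2 other sets of transcripts. Over the 36 transcripts that also rose in pregnancy, the median position of pregnant day 13 heifers was 0.0093 to 0.24, and that of pregnant day 16 heifers was 0.46 to 1.28. On those transcripts all pregnant day 16 heifers lay above all pregnant day 13 heifers, which the choice of that set favours, whereas on the 30 members the median positions of the 2 days overlapped, at 0.073 to 0.76 and 0.039 to 0.92. Over the 138 transcripts called as higher in pregnancy at day 16, heifer 19 had the lowest mean among pregnant day 16 heifers, 6.12 log2(CPM + 1), and heifer 1 the highest, 6.96. These 2 heifers were also the highest and the lowest on the 30 members. At pregnant day 13, heifer 14 was highest on both sets, with 5.65 on the 138 against 4.74 to 4.89 in the others. The 30 and the 138 had 0 transcripts in common, and a relation between the sets was not tested.

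The names of the deposited files carry a 6-digit code that is shared by several libraries, 4 codes in all, lettered A to D here. What the code stands for is not stated. Cyclic day 13 heifers were mostly of code B (3 of 5) and cyclic day 16 heifers mostly of code C (3 of 5). Within code A (1 cyclic heifer at each day) all 30 members were higher at day 16, with a median difference of 1.08, and within code C (3 at day 16, 1 at day 13) all 30 were higher with a median of 1.07. These heifers chose the members. In pregnant heifers the difference between days varied from code to code. With 1 or 2 heifers at each day, this cannot be told apart from spread between single heifers. Members of a heifer share its library, so counts of members are not replicates. Within code A (2 and 2 heifers) 25 of 30 were lower at day 16, with a median of -0.38, and without heifer 12 the median was -0.52 with 26 lower. Within code B (heifer 19 at day 16, 2 heifers at day 13) 30 of 30 were higher, with a median of 0.61, a value that rests on heifer 19 and cannot be had without it. Within code C (2 and 1) 20 of 30 were lower, with a median of -0.16. Code D held 1 cyclic day 16 heifer and gave no value.

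**Figure D5:**
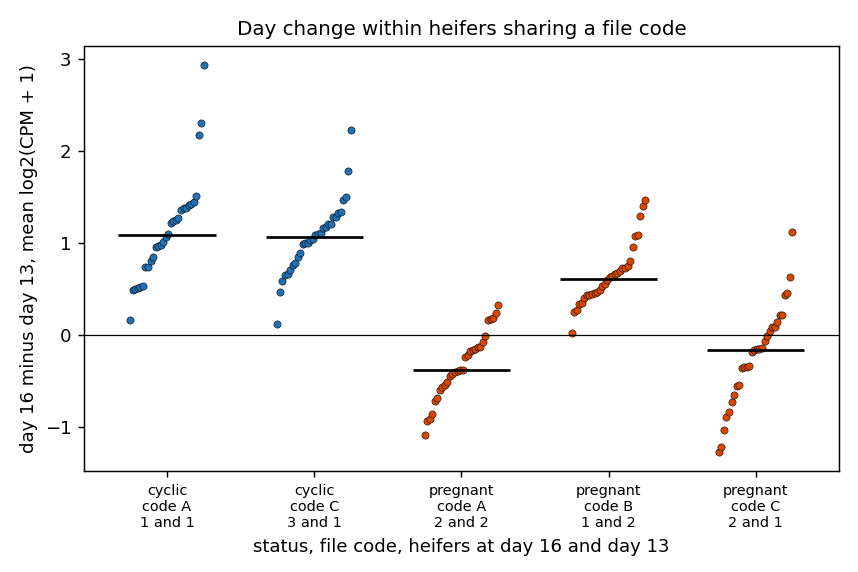
Difference of mean log2(CPM + 1) between day 16 and day 13 (vertical axis) for each of the 30 transcripts (points, with the median as a line) among heifers whose files share a code, with the numbers of heifers at day 16 and day 13 below. Cyclic values lie above 0 in both codes, while the pregnant medians are -0.38, 0.61 and -0.16.

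Tests were made across all transcripts with edgeR. All 30 members were among the 14826 tested. In cyclic heifers 13 of the 30 were called as higher at day 16 at an adjusted p under 0.05, where 0.479% of all transcripts were called as higher 1.24% as lower and 1.72% in either direction. An unadjusted p under 0.05 was reached by all 30, where 15.1% of all transcripts reached it. The rule used this contrast, so nothing is read from the count. The median fitted change was 0.93 over the members and 0.004 over all transcripts tested. DESeq2 called 24 members, where 440 of 14822 transcripts were called in either direction. With the file code as a covariate edgeR called 3 members, where 118 of 14826 transcripts were called. The 3 members were ENSBTAT00000022340, ENSBTAT00000030178 and ENSBTAT00000054082. The median change was then 1.00 and the median SE rose from 0.25 to 0.30. Leaving out single heifers gave 5 to 15 members called, where 140 to 371 of all transcripts were called. There were 5 when heifer 10 or heifer 3 was absent and 6 when heifer 8 or 13 was. There were 7 without heifer 18 and 8 without heifer 15, and all heifers named here were cyclic. The same 3 transcripts were called under all 26 alternatives.

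ENSBTAT00000054082 had the smallest SE of these 3. Its cyclic day 13 heifers had 35.6, 38.9, 39.6, 46.2 and 58.8 CPM, and its cyclic day 16 heifers had 63.3, 73.3, 80.8, 82.0 and 88.2 CPM. The fitted change was 0.82 (SE 0.15, edgeR adjusted p = 0.00401). In pregnant heifers it had 43.7 to 62.8 CPM at day 13 and 42.2 to 62.3 CPM at day 16, 2 nearly equal ranges that ended just below the lowest cyclic day 16 heifer. ENSBTAT00000030178 had 7.49 to 13.804 CPM at cyclic day 13 and 14.6 to 21.0 CPM at cyclic day 16, a fitted change of 0.92 (SE 0.20, edgeR adjusted p = 0.0120). Its pregnant heifers had 10.1 to 13.3 CPM at day 13 and 9.27 to 13.81 CPM at day 16, and 0 of 10 reached the cyclic day 16 range. These 2 transcripts were chosen for description after their values were seen.

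In pregnant heifers edgeR called 0 of the 30 between days, where 3.96% of all transcripts were called, 1.85% as higher and 2.11% as lower. An unadjusted p under 0.05 was reached by 0 members, where 16.9% of all transcripts reached it. DESeq2 also called 0, where it called 800 of 14822 transcripts. The 5 heifers of one pregnant day lay apart from the 5 of the other in 0 members, where 2.18% of the 13646 transcripts were wholly higher at day 16 and 2.68% at day 13. The rule asked for a small change there, so the count is a description. A direct test of whether the day change differed between pregnant and cyclic heifers called 0 of the 30 with edgeR, where 0.479% of all transcripts were called and 0.00674% with a smaller change in pregnancy. An unadjusted p under 0.05 was reached by 24 members, where 11.1% of all transcripts reached it, again with both changes fixed by the rule. DESeq2 called 1 member, where 125 of 14822 transcripts were called. It was ENSBTAT00000022340 (difference -1.87 on the log2 scale, DESeq2 adjusted p = 0.0182), for which edgeR gave -1.86 (SE 0.47, adjusted p = 0.0925). That was 1 of 26 alternatives in which this transcript passed, and for no member is a difference between the 2 states taken as shown. The median SE of this difference was 0.35 over the members, against a median difference of -0.87.

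Pregnant and cyclic heifers were also compared at each day, a contrast that the rule did not name but that uses the same heifers. A cyclic rise with a flat pregnant mean favours pregnant levels above cyclic at day 13 and below cyclic at day 16. The directions and the counts of members are therefore a description. At day 16 edgeR called 0 of the 30, where 0.958% of all transcripts were called and 0.027% as lower in pregnancy. All 30 had lower fitted levels in pregnant heifers, with a median log2 difference of -0.46 and a range of -0.93 to -0.11, against a median of -0.001 over all transcripts tested. An unadjusted p under 0.05 was reached by 13 members, where 6.76% of all transcripts reached it. DESeq2 called 1 member, where it called 185 of 14822 transcripts. That member was ENSBTAT00000019703, which had 125 ± 36.4 CPM in cyclic and 63.9 ± 21.5 CPM in pregnant day 16 heifers (SD, n = 5 each). Its log2 difference was -0.92 in edgeR (SE 0.23, adjusted p = 0.0618) and -0.93 in DESeq2 (adjusted p = 0.0133), and its adjusted p over 26 alternatives ran from 0.0133 to 0.248. Leaving out pregnant day 16 heifer 19 gave 2 members in edgeR, where 162 of 14976 transcripts were called. They were ENSBTAT00000034107 (-1.28, edgeR adjusted p = 0.0134) and ENSBTAT00000017807 (-0.91, edgeR adjusted p = 0.0336). Leaving out heifer 6 of pregnant day 16, heifer 9 of pregnant day 13, or heifer 7 or 16 of cyclic day 16 gave 1 member each. That member was ENSBTAT00000019703, and 120 to 154 of all transcripts were called in these fits.

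All 5 cyclic day 16 heifers lay above all 5 pregnant day 16 heifers in 4 of the 30 members, ENSBTAT00000019703, ENSBTAT00000022340, ENSBTAT00000030178 and ENSBTAT00000054082. Over the 13646 transcripts this separation was seen in 0.674%, and the choice of high cyclic day 16 values favours it. The opposite separation, pregnant above cyclic at day 16, was seen in 0 members and in 1.49% of the 13646. The other 26 members overlapped between the states at day 16.

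At day 13 edgeR called 0 of the 30 between pregnant and cyclic heifers, and 0% of all transcripts were called. DESeq2 called 0 of the 30 as well, and 3 of 14822 transcripts. Fitted levels were higher in pregnant heifers in all 30, with a median log2 difference of 0.41, and 7 had an unadjusted p under 0.05, where 6.54% of all transcripts did. The choice of low cyclic day 13 values favours this direction and these p-values, so nothing is read from either count. For ENSBTAT00000019703 the difference was 0.0075 in edgeR and -0.04 between means of log2(CPM + 1), so its direction was not settled. The smallest adjusted p among the members was 0.727. In 0 of the 30 did the 5 pregnant heifers all lie above the 5 cyclic ones, a separation seen in 0.264% of the 13646. A difference at day 13 was therefore not established for any member at this number of heifers.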

How the data were processed

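Single-read RNA-seq libraries of bovine endometrium were analysed from 21 files. Per the files, the authors deposited raw read counts for 28054 Ensembl transcript identifiers, and none of the values were normalised. Per the submitters' processing notes CASAVA was used, in a role that is not stated. Aligner, counter, build, annotation and use of strand: not given in the sources used here. Of the identifiers, 0 matched the reference table, so fixed gene lists could not be applied. Totals of 1256870 to 3764342 counts limit precision, and floors cover counting error only. Groups came from sample titles. Titles number the heifers, so each of the 20 is taken as a separate animal.

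CPM used file totals, and heifer 12 its library 1. The main test was edgeR 4.0.16 in R 4.3.3: filterByExpr (minimum count 10, total 15), TMM factors, 4 group means over 20 heifers, robust quasi-likelihood F tests and Benjamini-Hochberg adjustment over 14826 transcripts. SE was derived from the F statistic. The fit was tested on simulated data. DESeq2 1.42.0 and 25 refits were alternatives. Members and lists were chosen with earlier results of these data known. Described were the 6 members with the largest cyclic rise, the 4 most abundant, the 3 lowest and 3 highest positions, members called between states, and those at thresholds.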

Additional observations from a re-analysis of the deposited data

Results flagged for a closer look

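In 76 sets of 5 heifers, made of the described members and their mean level in each group, 3 single values stood far from the other 4. In independent sets chance gives about 1 in 20. These sets share heifers and the rule limited their cyclic values, so that rate is only a rough guide. The 3 found are not taken as more than chance would give. ENSBTAT00000022340 had 13.19 CPM in pregnant day 13 heifer 14, against 5.41 to 7.44 CPM in the others. ENSBTAT00000020433 had 35.5 CPM in cyclic day 16 heifer 15, against 23.9 to 26.3 CPM. ENSBTAT00000018580 had 115 CPM in cyclic day 16 heifer 3, against 60.2 to 68.7 CPM.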

How the results depend on the processing

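The rule gave 24 to 37 transcripts under other scalings, pseudocounts, abundance limits and choices of library for heifer 12, and 29 to 69 when 1 heifer was left out. It gave 64 when heifer 5 was absent, 46 when heifer 10 was and 69 when heifer 7 was, all cyclic. Leaving out any cyclic heifer leaves fewer to be separated, but without cyclic heifers 3, 8 and 13 the rule gave 29, 31 and 33. Why these numbers differed was not tested. Of the 30, 24 were kept with TMM scaling and 24 to 29 with a heifer left out. The median position of pregnant heifers stayed between 0.37 and 0.46 with heifers left out. The median SD with heifers left out was 0.32 to 0.35 in cyclic day 13, 0.25 to 0.33 in cyclic day 16, 0.38 to 0.41 in pregnant day 13 and 0.40 to 0.50 in pregnant day 16 heifers. Members called in cyclic heifers numbered 24 with DESeq2, 3 with the file code and 5 to 15 with heifers left out. Over all transcripts these settings called 440, 118 and 140 to 371. The difference between day changes gave 1 with DESeq2, where 125 transcripts were called in all. Pregnancy at day 16 gave 1 with DESeq2, where 185 were called, and 0 to 2 with heifers left out, where 119 to 162 were. For the difference between day changes, the pregnant day change and pregnancy at day 13, 0 were called with any heifer left out. Over all transcripts these fits called 53 to 99, 368 to 627 and 0, in that order. The rule used both day changes, so these counts of members are a description. Small differences between pregnant and cyclic heifers that were not called changed sign. With heifers left out, ENSBTAT00000007080 at day 16 ran from -0.392 to 0.0508, ENSBTAT00000015994 at day 16 from -0.371 to 0.0503, ENSBTAT00000018580 at day 13 from -0.0682 to 0.240 and ENSBTAT00000019703 at day 13 from -0.167 to 0.0953. With library 2 of heifer 12 ENSBTAT00000015994 at day 16 was 0.0303, and without the count filter ENSBTAT00000019703 at day 13 was -0.00818. The cause was not tested. The pregnant changes without heifers 12 and 19 were added after seeing the data. No paired analysis was possible because the groups share no heifer numbers.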
